A study of Mus musculus with 10 samples.

Results

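The insulin-like growth factor (IGF) system was followed through 10 of the 18384 genes listed in the mRNA-seq libraries, chosen by symbol with earlier results of these data known. The 10 genes are the ligands Igf1 and Igf2, the receptors Igf1r and Igf2r, and the binding proteins Igfbp2, Igfbp3, Igfbp4, Igfbp5, Igfbp6 and Igfbp7. Adipocyte precursors (APs), the cells that can turn into white or beige adipocytes, had been taken from subcutaneous white adipose tissue of C57BL/6J mice by depleting CD45- and CD31-positive cells and keeping SCA-1-positive ones. The age of the mice and the concentration of IL-4, a type 2 cytokine, are not given in the sources used here. All groups are cultures of these cells in serum-containing medium and carry no genetic change. mRNA-seq covered 3 control cultures (replicates 1 to 3) and 3 IL-4-treated cultures (replicates 4 to 6) at day 4, and small RNA sequencing covered 2 control and 2 IL-4-treated cultures at day 2, each described as a biological replicate.

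IGF1 and IGF2 are secreted growth factors. Both signal through the tyrosine kinase receptor encoded by Igf1r, whereas the receptor encoded by Igf2r binds IGF2, carries it to lysosomes and does not transmit a growth signal. The secreted binding proteins hold the ligands outside the cell, where they limit access to the receptor, prolong ligand lifetime or place the ligand on the matrix, and proteases such as the pappalysin encoded by Pappa free the ligand again by cutting some of them. In adipose tissue IGF1 drives proliferation and differentiation of precursors, and Igf2, H19 and Igf2r are imprinted genes.

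The 6 libraries held between 28526782 and 29057787 expected counts, so depth differed little between groups. In each group 1 library stood apart from the other two. By a chi-square of counts per degree of freedom, control replicate 3 differed from the other controls by 10.7 and 16.8, against 3.77 between those, and IL-4 replicate 6 differed from its group by 36.7 and 45.8, against 2.49. For markers, higher and lower mean called by edgeR at an adjusted p under 0.05, as 19% and 18.4% of all genes tested were. Of the 7 AP markers, 4 were higher and 1 was lower with IL-4. In control libraries their summed level was 552 to 578 FPKM (fragments per kilobase of transcript, scaled to library size). In IL-4-treated libraries it was 679 to 718 FPKM. Itgb1, which was not called, held the largest part of that sum, at 320 to 398 FPKM over all libraries. Cd34 rose 10.2-fold and Pi16 16.3-fold, and Dlk1 was the marker that was lower. Ly6a, which encodes SCA-1, stood at 108 to 291 FPKM over all libraries, and Dpp4, another precursor marker, at 0.22 to 0.40 FPKM. Markers of macrophages were also read in every library although CD45-positive cells had been depleted. Their summed level was 3086 to 3952 FPKM in control and 1209 to 1547 FPKM in IL-4-treated libraries, with 9 of 11 markers lower and 1 higher. Lyz2 held most of that sum, at 2469 to 3225 FPKM in control and 673 to 937 FPKM in IL-4-treated libraries. Of the 9 lower markers, 6 fell by more than 1 on the log2 scale, while Adgre1 and Itgam were 0.85- and 0.83-fold. Mrc1 was 1.76-fold higher and Cd68 was not called. Ptprc, which encodes CD45, was 17 to 19 FPKM in control and at most 8.48 FPKM in IL-4-treated libraries. The 6 genes that macrophages express after IL-4 were all higher, summing to 2.11 to 7.71 FPKM in control and 3495 to 4744 FPKM in IL-4-treated libraries. Markers of mural cells summed to 971 to 1026 FPKM in control and 356 to 378 FPKM in IL-4-treated libraries, with 5 of 5 lower. Of these, Acta2, also a gene of myofibroblasts, held the most. Pdgfrb came next, at 96.4 to 200 FPKM over all libraries, while Rgs5, Cspg4 and Myh11 reached no more than 1.04, 5.60 and 1.80 FPKM. Endothelial markers summed to at most 12.4 FPKM (1 of 5 higher, 2 lower), mesothelial markers to at most 11.4 FPKM (2 of 2 tested higher) and lymphocyte markers to at most 1.25 FPKM (1 of 2 tested lower), while mature adipocyte markers reached 78.6 FPKM, nearly all of it Fabp4 (higher with IL-4), with Adipoq at no more than 0.39 FPKM. The part of these cell types in the IGF results was not tested, and in bulk cultures fewer cells of a type cannot be told apart from less RNA per cell.

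All 10 genes were listed in all 6 libraries, with whole-number counts, and all 10 passed the filter on low counts. With IL-4, 4 of the 10 rose (Igf1, Igf2, Igfbp5 and Igfbp6), 4 fell (Igf1r, Igfbp2, Igfbp3 and Igfbp4), and Igf2r and Igfbp7 did not pass the test (edgeR's quasi-likelihood test, adjusted p under 0.05 over the 14009 genes tested). Among all genes tested, 37.4% were called, 19% as higher and 18.4% as lower. Igfbp5 and Igfbp6 were the 2 genes with a log2 fold change above 1, against 5.77% of all genes, and none of the 10 fell by more than 1 on the log2 scale, against 5.26% of all genes. The normalized counts of control and IL-4-treated libraries did not overlap for 8 of the 10 genes, which was so for 50.4% of all genes. The median log2 fold change of the 10 was -0.09, beside 0.0026 for all genes tested (quartiles -0.21 and 0.23). Scaling by library totals alone moved the median of all genes to -0.17 and the calls to 1704 higher and 4963 lower, in place of 2663 and 2582, and left the direction and the call of the 8 genes as they were. They were also called in the same direction when control replicate 3 and IL-4 replicate 6 were both left out, a choice made after seeing the data.

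**Figure D1:**
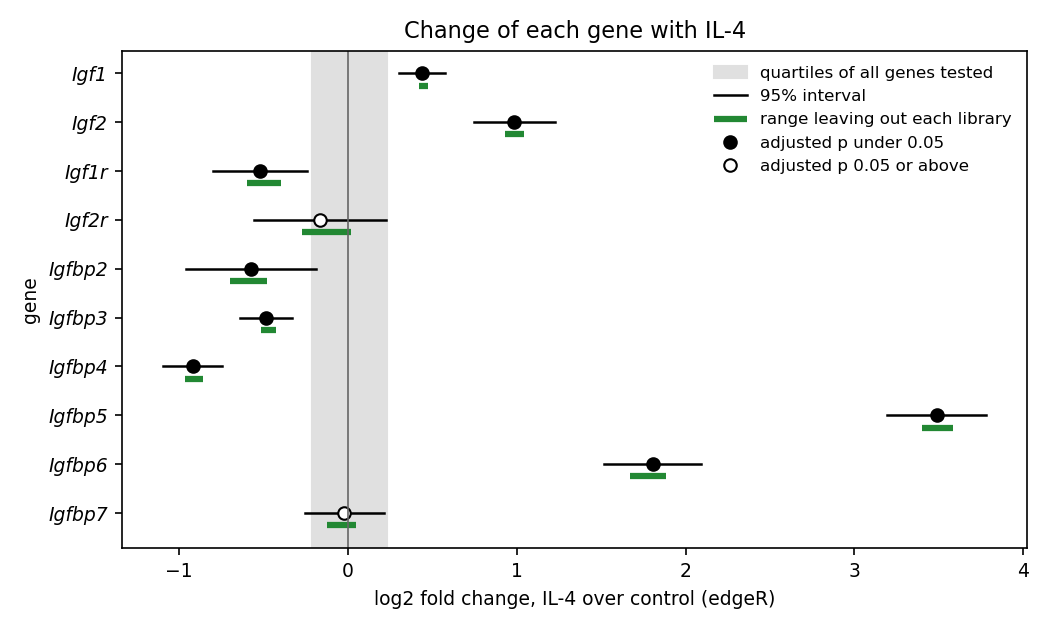
Log2 fold change of each gene, IL-4 over control, with its 95% interval (black line) and the range of values over fits without 1 library (green line); the grey band spans the quartiles of all genes tested. Igfbp5 at 3.49 and Igfbp6 at 1.81 lie far to the right, Igfbp4 at -0.92 lies farthest to the left, and the open circles of Igf2r and Igfbp7 mark adjusted p-values of 0.05 or above.

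In control cultures the levels per transcript length followed the order Igfbp7, Igfbp3, Igfbp4, Igfbp6, Igf2r, Igf1, Igfbp5, Igf1r, Igfbp2 and Igf2. They ran from 485 FPKM to 1.40 FPKM on average, and the library ranges of neighbours in this order did not overlap. Igfbp7 was the 122nd most abundant of the 17689 genes with reads in control libraries and Igf2 the 11411th. In IL-4-treated cultures Igfbp6 moved from rank 4 to rank 2 and Igfbp5 from rank 7 to rank 4. In 3 cases, pairs of neighbours in the IL-4 order had overlapping ranges and so were not separated beyond their spread, namely Igfbp6 and Igfbp3, Igf2r and Igf1, and Igf2 and Igfbp2.

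**Figure D2:**
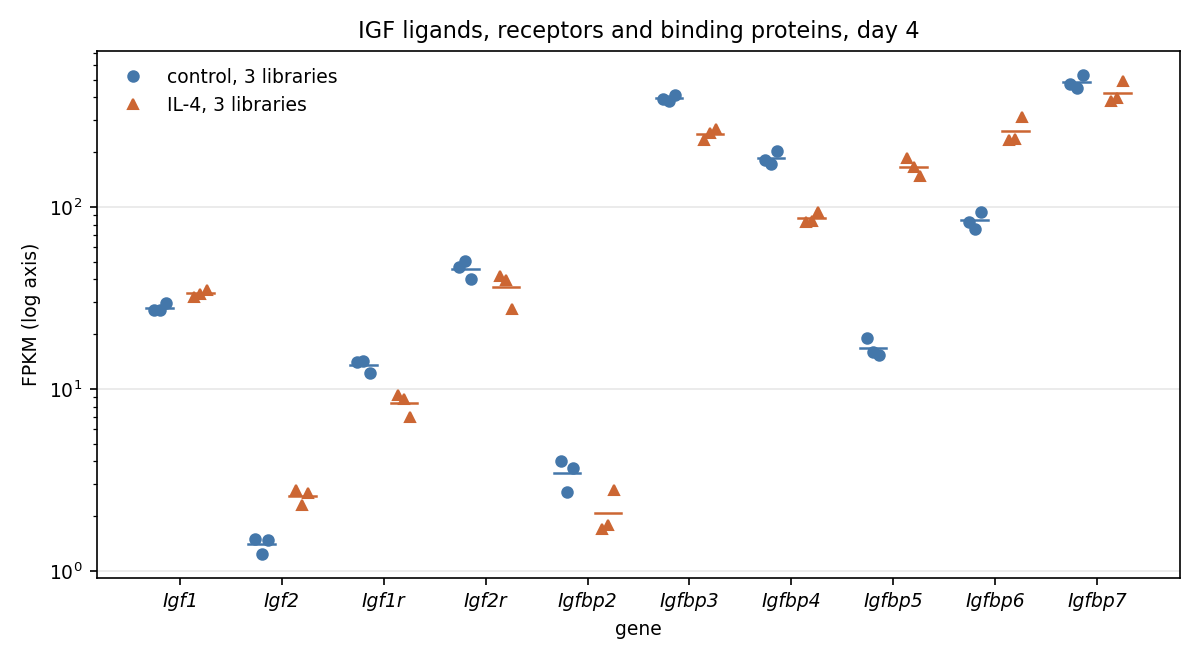
FPKM of the 10 genes in each library on a log axis, with control libraries as circles, IL-4-treated libraries as triangles and a line at each group mean; replicates run from left to right. Igfbp5 moves from 15.4 to 18.9 FPKM up to 148 to 186 FPKM, while Igf1 stays between 27.0 and 35.1 FPKM over all libraries.

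Igf1 was the main ligand mRNA. It is Entrez gene 16000, at chr10:87858265-87937047 on the plus strand of GRCm38, the assembly also called mm10. Its level was 27.0, 27.0 and 29.5 FPKM in control replicates 1 to 3 and 32.2, 33.2 and 35.1 FPKM in IL-4 replicates 4 to 6. Every IL-4-treated library was above every control library, and the spread within each group was small. Normalized counts went from 5322 ± 233 to 7227 ± 207 (SD, n = 3 each), 1.36-fold higher, with a log2 fold change of 0.44 (standard error 0.059, edgeR adjusted p = 0.000617). Scaled by library totals, the same change was 0.27 on the log2 scale (edgeR adjusted p = 0.0100).

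Igf2 (Entrez gene 16002, chr7:142650768-142666816, minus strand), the fetal growth factor, was low. It stood at 1.49, 1.24 and 1.47 FPKM in control and at 2.79, 2.29 and 2.69 FPKM in IL-4-treated libraries, from 125 to 135 and from 218 to 247 expected counts. The groups did not overlap. Normalized counts rose from 123 ± 5.56 to 244 ± 19.6 (SD, n = 3 each), 1.98-fold, with a log2 fold change of 0.99 (standard error 0.10, edgeR adjusted p = 0.000176). Igf2 held 4.39% to 5.23% of the summed ligand FPKM in control and 6.46% to 7.98% in IL-4-treated libraries. Igf2os, transcribed from the opposite strand of the Igf2 region, reached at most 0.01 FPKM, and reads of the 2 strands cannot be told apart because strand-specific counting is not stated in the sources used here.

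The genes most like Igf1 across the 6 libraries, among 11418 others with at least 100 normalized counts, were Smpd1, Pla2g15 and B3gnt9. Their log2 values, centred on each gene's mean, differed from those of Igf1 by root mean squares of 0.0229, 0.0247 and 0.0307. Smpd1, the lysosomal acid sphingomyelinase gene, had 1434 to 1495 normalized counts in control and 1879 to 2031 in IL-4-treated libraries. For Igf2 the closest genes were Slc7a14, Btbd11 and Rps6kc1, with root mean squares of 0.0321, 0.0355 and 0.0402. These 6 libraries fall into 2 groups, so likeness is mostly a matter of a similar difference between them.

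Igf1r (Entrez gene 16001, chr7:67952257-68233668, plus strand), the receptor for both ligands, was lower with IL-4. Its level was 14.1, 14.2 and 12.2 FPKM in control and 9.21, 8.75 and 7.02 FPKM in IL-4-treated libraries. The lowest library of each group was the one that stood apart, and the groups did not overlap. Normalized counts fell from 4371 ± 407 to 3047 ± 469 (SD, n = 3 each), and the log2 fold change was -0.52 (standard error 0.12, edgeR adjusted p = 0.0104), and leaving out control replicate 3 and IL-4 replicate 6 gave -0.47 (standard error 0.044). Igf2r (Entrez gene 16004, chr17:12682406-12769706, minus strand) was 46.9, 50.5 and 40.1 FPKM in control and 41.7, 39.8 and 27.4 FPKM in IL-4-treated libraries. Its groups overlapped, and its log2 fold change of -0.16 (95% interval -0.55 to 0.23, edgeR adjusted p = 0.497) became 0.02 without IL-4 replicate 6. The antisense RNA Airn overlaps the first part of Igf2r, and its reads could not be told apart either. The insulin receptor gene Insr, whose product pairs with the IGF1 receptor in hybrid receptors, was 7.53, 7.89 and 6.55 FPKM in control and 8.26, 8.49 and 6.53 FPKM in IL-4-treated libraries, a log2 fold change of 0.26 (edgeR adjusted p = 0.144). Without IL-4 replicate 6 the value for Insr was 0.38 (edgeR adjusted p = 0.00265).

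Among the 10 genes, the binding proteins had the largest summed FPKM. Igfbp5 had the largest change of the 10 genes and Igfbp6 the next largest. Igfbp5 (Entrez gene 16011, chr1:72858065-72874865, minus strand) encodes a binding protein that attaches to extracellular matrix. Its level was 18.9, 15.9 and 15.4 FPKM in control and 186, 166 and 148 FPKM in IL-4-treated libraries, so each IL-4-treated library stood far above each control. Normalized counts rose from 2640 ± 303 to 29580 ± 3824 (SD, n = 3 each), 11.2-fold (95% interval 9.15 to 13.7), with a log2 fold change of 3.49 (standard error 0.13, edgeR adjusted p = 6.16e-07). Leaving out each library in turn gave log2 values between 3.40 and 3.58.

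Igfbp6 (Entrez gene 16012, chr15:102144186-102149512, plus strand) encodes the binding protein with a marked preference for IGF2. It stood at 82.4, 76.0 and 94.4 FPKM in control and at 233, 237 and 314 FPKM in IL-4-treated libraries. The highest values of both groups were those of the libraries that stood apart, and the groups did not overlap. Normalized counts rose from 2827 ± 287 to 9883 ± 1551 (SD, n = 3 each), 3.50-fold (95% interval 2.87 to 4.26), with a log2 fold change of 1.81 (standard error 0.12, edgeR adjusted p = 1.57e-05). Without both of these libraries the log2 fold change was 1.75 (standard error 0.046).

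Igfbp4 (Entrez gene 16010, chr11:99040005-99052655, plus strand), an inhibitory binding protein that the Pappa product cuts, fell the most. It was 181, 173 and 203 FPKM in control and 82.9, 84.1 and 94.0 FPKM in IL-4-treated libraries, with no overlap. Normalized counts went from 10080 ± 759 to 5333 ± 284 (SD, n = 3 each), and the log2 fold change was -0.92 (standard error 0.075, edgeR adjusted p = 4.03e-05). Scaled by library totals the value was -1.09, beyond the threshold of 1.

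Igfbp3 (Entrez gene 16009, chr11:7206086-7215498, minus strand), the main IGF carrier of blood, also fell. Its levels were 394, 384 and 414 FPKM in control and 232, 254 and 269 FPKM in IL-4-treated libraries. The groups were apart, with 25770 ± 765 and 18420 ± 1133 normalized counts (SD, n = 3 each), and the log2 fold change was -0.48 (standard error 0.067, edgeR adjusted p = 0.000747). Igfbp2 (Entrez gene 16008, chr1:72824480-72852474, plus strand), a binding protein that white preadipocytes secrete, was the least read of the family, with 96 to 127 expected counts in control and 61 to 84 in IL-4-treated libraries. It was 4.02, 2.71 and 3.68 FPKM in control and 1.69, 1.79 and 2.77 FPKM in IL-4-treated libraries, so control replicate 2 was below IL-4 replicate 6 in FPKM. In normalized counts, which are not divided by an estimated transcript length, the groups did not overlap (110 ± 15.8 and 74.2 ± 11.2, SD, n = 3 each). Its log2 fold change of -0.57 (standard error 0.17, edgeR adjusted p = 0.0283) lost its call when control replicate 1, control replicate 3, IL-4 replicate 4 or IL-4 replicate 5 was left out (edgeR adjusted p = 0.103, 0.0849, 0.0910 and 0.0950).

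Igfbp7 (Entrez gene 29817, chr5:77349240-77408045, minus strand), a related protein with low affinity for IGFs, was the most abundant of the 10 in both groups. It stood at 473, 450 and 533 FPKM in control and at 385, 395 and 494 FPKM in IL-4-treated libraries. Here too control replicate 3 and IL-4 replicate 6 were the highest of their groups, and the groups overlapped. The log2 fold change was -0.02 (95% interval -0.25 to 0.21, edgeR adjusted p = 0.901), and it lay between -0.12 and 0.05 with each library left out. Igfbp1 is listed in no library.

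Igfbp2 and Igfbp5 lie tail to tail on chromosome 1, with 5590 bases between their ends, and changed in opposite directions, Igfbp5 upward and Igfbp2 downward in the fit of all 6 libraries. Igfbp3 has the same arrangement with Igfbp1 on chromosome 11, with 3539 bases between them.

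As a share of the summed FPKM of the 6 binding proteins, Igfbp3 and Igfbp4 together went from 49.7% ± 0.866 in control to 28.4% ± 1.17 in IL-4-treated libraries (SD, n = 3 each). Igfbp5 and Igfbp6 together went from 8.61% ± 0.231 to 35.9% ± 1.31 (SD, n = 3 each). The make-up of the binding protein mRNA thus differed between groups by far more than between replicates, while the ranges of its sum overlapped, at 1101 to 1263 FPKM in control and 1120 to 1321 FPKM in IL-4-treated libraries. In CPM, the expected counts scaled to library size without division by length, the sum was 1927 to 2167 in control and 2449 to 2602 in IL-4-treated libraries, with no overlap. Neither sum was adjusted by the TMM scaling factors used in the edgeR test. These were 1.05 to 1.07 in control and 0.932 to 0.961 in IL-4-treated libraries, so the overlap holds only for FPKM scaled to library size. Igfbp7 held 41.4% ± 0.727 in control and 35.5% ± 1.67 in IL-4-treated libraries (SD, n = 3 each), and its FPKM was the largest in both. In counts scaled to library size but not divided by length, Igfbp5, which has a long transcript, took 38.5% of the binding protein counts with IL-4 and 4.79% in control. The summed FPKM of binding proteins was 39.0 to 40.8 times that of the ligands in control and 32.0 to 35.0 times in IL-4-treated libraries, but on counts without that division the ratio was 9.89 to 10.4 in control and 10.1 to 10.6 with IL-4, so that difference rests on the division by length. These shares are descriptions and were given no test.

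**Figure D3:**
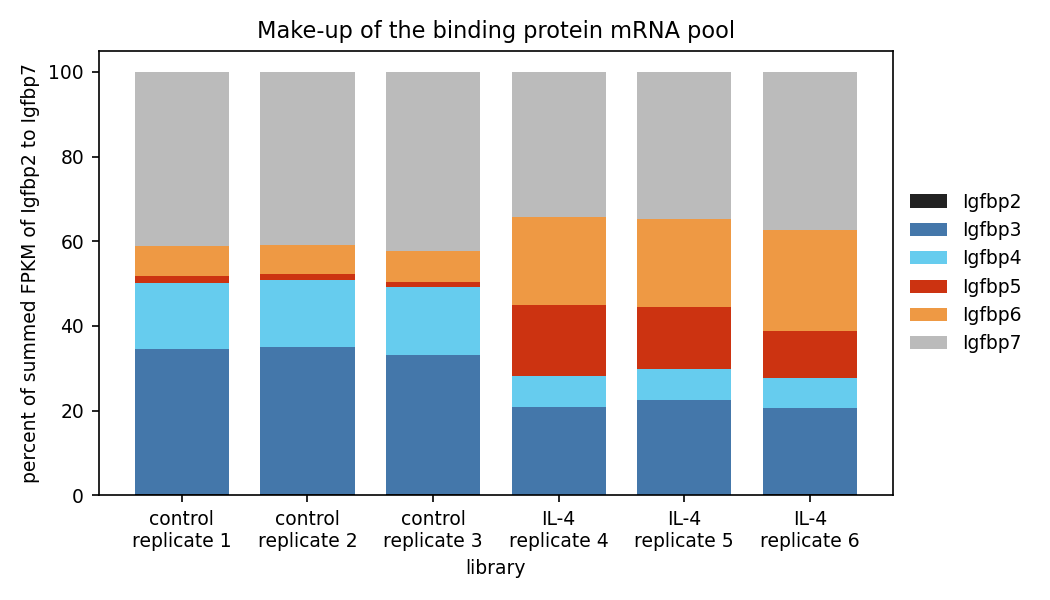
Share of each binding protein in the summed FPKM of Igfbp2 to Igfbp7, in percent, for each control and IL-4-treated library (stacked bars, each summing to 100). Igfbp5 (red) and Igfbp6 (orange) widen from 8.35% to 8.79% in control libraries to 34.9% to 37.4% in IL-4-treated libraries, and Igfbp3 (dark blue) and Igfbp4 (light blue) narrow.

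The promoters of the 2 genes that rose most and of the gene that fell most are printed because they differ in their content of CG dinucleotides, the sites of DNA methylation in mammals. They are RefSeq promoters on GRCm38, from 250 bases before to 50 bases after an annotated start of transcription, 5′ to 3′ on the gene's strand, with each CG in capitals. The window of Igfbp4 lies inside the gene span given above and not at its edge. So do those of Igf1 and Igfbp3, the more downstream window of Igfbp2, and all Igf2 windows but the most upstream. The Igfbp5 window is chr1:72874816-72875115, the Igfbp6 window chr15:102143936-102144235 and the Igfbp4 window chr11:99040994-99041293.
Igfbp5: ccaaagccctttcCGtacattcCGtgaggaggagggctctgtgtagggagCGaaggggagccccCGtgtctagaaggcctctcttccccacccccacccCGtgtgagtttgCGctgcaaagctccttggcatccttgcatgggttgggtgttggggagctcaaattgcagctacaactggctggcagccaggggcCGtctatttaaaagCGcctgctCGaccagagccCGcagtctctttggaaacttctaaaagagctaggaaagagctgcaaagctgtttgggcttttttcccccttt
Igfbp6: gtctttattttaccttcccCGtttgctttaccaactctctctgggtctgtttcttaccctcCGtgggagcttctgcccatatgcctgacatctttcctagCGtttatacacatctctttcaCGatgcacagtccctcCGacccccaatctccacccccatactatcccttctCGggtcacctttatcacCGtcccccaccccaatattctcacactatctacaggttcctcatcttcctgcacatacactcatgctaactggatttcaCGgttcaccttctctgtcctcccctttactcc
Igfbp4: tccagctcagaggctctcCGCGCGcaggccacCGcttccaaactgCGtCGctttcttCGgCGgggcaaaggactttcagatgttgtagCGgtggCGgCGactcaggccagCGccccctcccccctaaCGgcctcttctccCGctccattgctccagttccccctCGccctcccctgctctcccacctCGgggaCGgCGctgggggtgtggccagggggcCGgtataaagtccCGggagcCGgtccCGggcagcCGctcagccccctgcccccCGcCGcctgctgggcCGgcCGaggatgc

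Igfbp5 has 10 CG in this window and Igfbp6 has 8, near the median of 7 over all 32851 promoters in the RefSeq table, whereas Igfbp4 has 27. Of the other genes that fell, Igfbp3 has 37 CG, Igf1r has 48, and the 2 starts of Igfbp2 have 14 and 18. Of the others that rose, Igf1 has 6 and the 4 starts of Igf2 have 2, 7, 14 and 24, and the uncalled Igf2r and Igfbp7 have 34 and 33. This description was made after the values were seen and was not tested. The palindromic motif of the IL-4-activated factor STAT6, TTC and GAA separated by 4 bases, was in none of the 14 promoter windows of the 10 genes, and in 6.95% of all promoters. No match says only that these letters are not in these windows.

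Around the 10 genes, 60 further genes in 6 lists were counted, which include a list of IGFBP-domain proteins outside the IGF system. In the files 56 are listed, 50 were tested, and 12 were higher and 13 lower with IL-4, where 19% and 18.4% of all genes were. The list outside the system gave 6 of the 13 lower genes and 1 of the 12 higher ones. The median log2 fold change of the 50 was -0.08. Without IL-4 replicate 6 the count of higher genes was 19, and with library totals the count of lower genes was 25.

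Among other ligands, receptors and carriers, only Insr and H19 had enough counts to be tested, and H19 was called. H19 (chr7:142575530-142578146, minus strand), the imprinted non-coding RNA beside Igf2, is not the H19X cluster of miRNAs on the X chromosome. It stood at 86.5, 79.2 and 102 FPKM in control and at 214, 208 and 243 FPKM in IL-4-treated libraries. The groups did not overlap, and H19 was 2.80-fold higher, a log2 fold change of 1.49 (standard error 0.098, edgeR adjusted p = 1.30e-05). Igfals, the gene of the acid-labile subunit of the IGF complex in serum, was listed at 0.05 to 0.07 FPKM in control and 0.10 to 0.32 FPKM in IL-4-treated libraries.

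Of the proteases that cut binding proteins and their inhibitors, 2 of 8 tested were higher and 2 lower, beside 19% and 18.4% of all genes. The median log2 fold change of this list was 0.22. Pappa, the pappalysin gene, was 45.5, 50.02 and 33.8 FPKM in control and 7.18, 7.09 and 4.54 FPKM in IL-4-treated libraries. Each IL-4-treated library was far below each control, and normalized counts fell from 12860 ± 2597 to 2114 ± 534 (SD, n = 3 each), and the log2 fold change was -2.60 (standard error 0.22, edgeR adjusted p = 5.01e-05). Pappa2, a related protease gene, rose by 1.59 on the log2 scale from 10.1 ± 3.91 to 30.7 ± 6.96 normalized counts (SD, n = 3 each), close to the filter on low counts (edgeR adjusted p = 0.00664), and was not called with limma on log2(FPKM + 1) (adjusted p = 0.0719). The stanniocalcins inhibit pappalysins. Stc2 rose (log2 fold change 0.81, edgeR adjusted p = 0.000178) and Stc1 fell (log2 fold change -0.60, edgeR adjusted p = 0.00439).

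In the list of intracellular signalling, 4 of 21 tested genes were higher and 3 lower, beside 19% and 18.4% of all genes. None changed by more than 1 on the log2 scale, and the median was -0.09. Irs1, the docking protein gene used by the insulin and IGF1 receptors, rose from 6.04 to 6.77 FPKM in control to 9.79 to 11.8 FPKM (log2 fold change 0.94, edgeR adjusted p = 0.000134). Foxo1, a transcription factor gene that insulin signalling restrains, rose by 0.53 on the log2 scale (edgeR adjusted p = 0.00186). Pik3cb, a catalytic subunit gene of phosphoinositide 3-kinase, had a log2 fold change of -0.89 (edgeR adjusted p = 0.000472). Grb14, an adaptor gene that inhibits the insulin receptor, had one of -0.75 (edgeR adjusted p = 0.000234).

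In the growth hormone axis, the main regulator of Igf1 transcription in liver, 3 of 8 genes were higher and 2 lower. Among all genes tested these shares were 19% and 18.4%. The median log2 fold change of the list was -0.12. Cish and Socs1 encode feedback inhibitors of JAK and STAT signalling. Cish went from 2.75, 2.73 and 2.68 FPKM to 27.9, 30.0 and 33.9 FPKM, a log2 fold change of 3.67 (standard error 0.083, edgeR adjusted p = 8.32e-08). Socs1 rose by 3.19 on the log2 scale (edgeR adjusted p = 3.41e-06), and Jak2 by 0.58 (edgeR adjusted p = 0.000583). Socs3 fell by 0.39 on the log2 scale (edgeR adjusted p = 0.00202). Ghr, the growth hormone receptor gene, was the other lower gene (log2 fold change -0.28, edgeR adjusted p = 0.01165). Stat5a, Stat5b and Socs2 were not called, and the activity of the axis was not tested. Of the genes for Igf2 mRNA-binding proteins, Igf2bp2 was the 1 of 3 that was called (log2 fold change 0.32, edgeR adjusted p = 0.00669, which was 0.0856 when scaled by library totals).

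The IGFBP domain also occurs in proteins outside the family, such as the CCN matrix proteins. Of 8 tested genes, 6 were lower and 1 was higher, with a median log2 fold change of -0.87, and 4 fell by more than 1 on the log2 scale. Among all genes tested 18.4% were lower, 19% were higher and 5.26% fell by more than 1. Ctgf, a matrix protein gene that responds to YAP, was 216, 211 and 200 FPKM in control and 66.2, 63.3 and 68.5 FPKM in IL-4-treated libraries, a log2 fold change of -1.49 (standard error 0.061, edgeR adjusted p = 1.14e-06). Wisp1 and Cyr61, also of the CCN group, had log2 fold changes of -1.62 and -1.03 (edgeR adjusted p = 6.61e-06 and 3.12e-06). Esm1, the endocan gene, was low throughout, at 0.30 to 0.42 FPKM in control and 0.05 to 0.13 FPKM with IL-4 (log2 fold change -1.78, edgeR adjusted p = 0.00532). The mural and myofibroblast marker Acta2 fell with them, from 779 to 819 FPKM to 240 to 279 FPKM, and its part in these values was not tested.

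**Figure D4:**
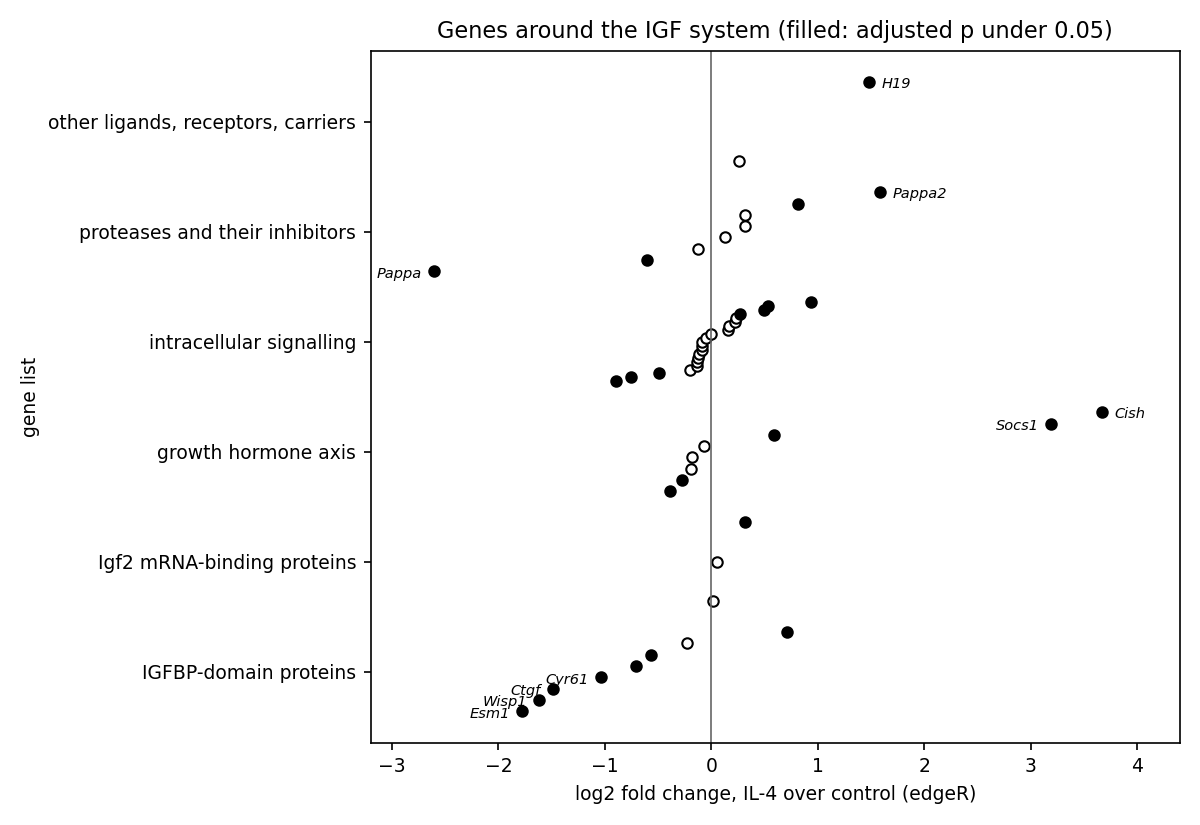
Log2 fold change, IL-4 over control, of each tested gene in the 6 lists around the IGF system, 1 point per gene, filled where the adjusted p was under 0.05 and named where it also lay beyond 1. Cish at 3.67 and Socs1 at 3.19 lie farthest to the right and Pappa at -2.60 farthest to the left, while the 21 signalling genes all lie within 1 of zero.

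Small RNA sequencing bears on the family through miRNAs made from its genes and through miRNAs whose seeds match its 3′ UTRs. The 4 libraries held 23790821 to 32061504 reads of mature miRNAs. Of 640 miRNAs tested, 0% were called at an adjusted p under 0.05 with edgeR's quasi-likelihood test, while 39 had an unadjusted p under 0.05 and DESeq2 called 12. miR-483 lies in an intron of all 5 annotated Igf2 transcripts, and miR-675 lies inside H19, which lies 72621 bases from Igf2. miR-483-3p was read 3 and 1 times in control and 4 and 15 times in IL-4-treated libraries, and miR-483-5p 0 and 0 times and 2 and 6 times, too few to be tested. miR-675-3p was read 45 and 24 times in control and 42 and 46 times in IL-4-treated libraries (log2 fold change 0.07, standard error 0.49, edgeR adjusted p = 0.989). The rise of H19 was measured at day 4 and these miRNAs at day 2, in other cultures.

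The major arms of 6 miRNAs of the H19X cluster were used for the search of seed sites, and the reads of each were higher in both IL-4-treated libraries than in either control. miR-322-5p had 57719 and 40177 reads in control and 156462 and 130498 in IL-4-treated libraries, a log2 fold change of 1.30 (standard error 0.37, edgeR adjusted p = 0.450). It was called with DESeq2 (adjusted p = 0.0127), with edgeR and no filter (adjusted p = 6.06e-06) and with the replicate block. miR-542-3p had 5725 and 6878 reads in control and 20428 and 19283 in IL-4-treated libraries, a log2 fold change of 1.45 (standard error 0.24, edgeR adjusted p = 0.0866). It was called with DESeq2 (adjusted p = 6.74e-06), with edgeR and no filter (adjusted p = 2.67e-06) and with the replicate block. The other 4 arms were likewise called by DESeq2, with no filter and with the replicate block, and none of the 6 was called in the main edgeR comparison or with counts summed over precursors. The block rests on replicate numbers that the labels tie to nothing. With 2 libraries per group it leaves little spread to estimate, so its p-values lean on the spread shared across miRNAs. A site was taken as a match to the reverse complement of bases 2 to 8, the seed, in the longest annotated 3′ UTR of RefSeq on GRCm38. The 2 mature miRNAs are printed 5′ to 3′ with the seed in capitals, followed by the matches to each, with the site in capitals, so that the genes on either side of the change can be compared.
miR-322-5p: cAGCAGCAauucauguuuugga
Igf1, chr10:87930783-87930789: caggatccttTGCTGCTtgagcaac
Igf2, chr7:142652784-142652790: atctagtttcTGCTGCTgcttattg
Igf2, chr7:142652781-142652787: tagtttctgcTGCTGCTtattggct
Igf1r, chr7:68229951-68229957: cccatccgtcTGCTGCTcacaggtg
Igf2r, chr17:12683360-12683366: aaaaaaccctTGCTGCTttagaccc
Igfbp3, chr11:7207155-7207161: cgggcttcaaTGCTGCTggccctct
Igfbp4, chr11:99052156-99052162: ctctgctctgTGCTGCTgcgtagag
miR-542-3p: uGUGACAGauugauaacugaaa
Igf1, chr10:87932248-87932254: gatcattcatCTGTCACtgggatgc
Igf1, chr10:87934928-87934934: gaaccagcttCTGTCACatcctctg
Igfbp5, chr1:72858445-72858451: gacaccatcaCTGTCACacagtagc
Igfbp5, chr1:72858430-72858436: acacagtagcCTGTCACacggatag
Igfbp6, chr15:102149421-102149427: cccattgtccCTGTCACccttgggc

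The miR-322-5p site TGCTGCT was in the 3′ UTRs of 6 of the 10 genes, and in 19.1% of all 19536 3′ UTRs searched. The 6 are both ligands, which rose, both receptors, of which Igf1r fell, and Igfbp3 and Igfbp4, which fell. The 2 sites of Igf2 overlap each other. Long 3′ UTRs hold more matches, and for Igf1, whose 3′ UTR has 6347 bases, 63.3% of 3′ UTRs within 20% of that length hold the site. For Igfbp4, with 1076 bases, the share was 18.7%, and for Igfbp3, with 1435 bases, 23.7%. It was 65.9% for Igf1r, 40.3% for Igf2 and 22.7% for Igf2r. Igfbp2, Igfbp5, Igfbp6 and Igfbp7 had no such match, where the shares at like length were 6.73%, 52.3%, 4.23% and 4.26%.

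The miR-542-3p site CTGTCAC was in 3 of the 10 genes, namely Igf1, Igfbp5 and Igfbp6, all higher with IL-4, and in 13.0% of all 3′ UTRs. In Igfbp6, with a 3′ UTR of only 210 bases, the share among 3′ UTRs of like length was 2.40%, while it was 52.7% for Igf1 and 38.8% for Igfbp5. The site of miR-503-5p was in Igfbp5 alone, and in 3.77% of all 3′ UTRs and 11.1% of those of like length. The study places miR-503-5p and miR-322-5p in the miR-15 family. Their seeds, AGCAGCG and AGCAGCA, differ only in the last base. A search without that base would give both miRNAs the same sites, including those listed for miR-322-5p and that of Igfbp5. Sites of miR-450a-5p were in Igf2 and Igfbp3, and in 1.02% of all 3′ UTRs (2.07% and 1.30% of those of like length). Sites of miR-450b-5p were in Igf1 and Igf1r, and in 10.5% of all 3′ UTRs (42.5% and 48.0% of those of like length). None of the 10 held the site of miR-351-5p, which 12.2% of all 3′ UTRs hold. Genes with a site were thus found among those that rose and those that fell, and no test of an effect of sites was made.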

How the data were processed

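mRNA-seq was analysed from 3 control and 3 IL-4-treated cultures and small RNA sequencing from 2 and 2, grouped by the sample labels. The days of harvest come from the text of the study. Per the methods, the authors cleaned the mRNA reads with SOAPnuke, and Bowtie2 with RSEM gave the gene levels; HISAT and StringTie are also named in the submitters' processing notes. The deposited files hold expected counts, which are not normalized, and the deposited FPKM, scaled by the authors for transcript length and library size. The small RNA files hold the raw read counts per arm that the authors obtained with miRDeep2 against miRBase.

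Genes missing from a library were taken as 0, and a single entry naming no gene, at most 0.000225% of the counts, was dropped. Expected counts were rounded, since 87.0% of those above 0 are whole and the rest stem from reads shared between genes, which included none of the 10 genes. edgeR 4.0.16 (R 4.3.3) was used with TMM scaling, filterByExpr (minimum count 10, minimum total 15) and the quasi-likelihood test, and p-values were adjusted by Benjamini-Hochberg across the tested genes. Normalized counts are counts scaled to the mean library. The biological coefficient of variation was 0.0939. On simulated data of this comparison with 13882 genes, 81.6% of genes changed by 1 on the log2 scale and 97.2% of those changed by 2 were recovered. Where a mature miRNA had several precursors, the largest count was kept. Depth was nearly equal between mRNA libraries and sets the precision of low genes such as Igf2 and Igfbp2.

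Alternatives were DESeq2 1.42.0, upper-quartile scaling, library totals, no filter, limma 3.58.1 on FPKM logged to base 2 with a pseudocount of 1 or 0.1, a replicate block for small RNA, and each library left out. The 10 genes, the lists and the alternatives were chosen with earlier results of these data known. Named from each list were Insr, Igfbp1, Igfals, Pappa, H19 and at most 4 called genes with the largest change, and the rest of the growth hormone list. Marker lists cover APs, macrophages, genes of macrophages after IL-4, endothelial, mural and mesothelial cells, lymphocytes and mature adipocytes. Sequences and positions are RefSeq on GRCm38.p6, the assembly of mm10. Protein features were not analysed here. Figures and tables used Python 3.11.15, pandas 2.3.3 and matplotlib 3.10.9.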

Additional observations from a re-analysis of the deposited data

How the results depend on the processing

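Each of the 10 genes was refitted under 14 alternatives. Igf1, Igf2, Igf1r, Igfbp3, Igfbp4, Igfbp5 and Igfbp6 kept direction and call in all of them, and Igfbp2 lost its call in 4 that left out 1 library. The uncalled Igf2r and Igfbp7 changed sign. Igf2r lay between -0.27 and 0.021 on the log2 scale with each library left out, the latter without IL-4 replicate 6. Igfbp7 lay between -0.12 and 0.051, above 0 without control replicate 3, IL-4 replicate 4 or IL-4 replicate 5. The log2 fold change of Igf2, a low gene, was 0.58 with limma on log2(FPKM + 1) and 0.84 on log2(FPKM + 0.1). The cause was not tested unless stated.

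Of the 10 genes, 1 instead of 0 fell by more than 1 on the log2 scale with library totals and with limma on log2(FPKM + 1), on log2(FPKM + 0.1) and on log2(FPKM + 1) with no filter, and it was Igfbp4 each time. For the lists around the family, 19 instead of 12 genes were higher without IL-4 replicate 6 (11 to 19 when each library was left out), and 20 without control replicate 3 and IL-4 replicate 6, an alternative added after seeing the data. Of these genes 25 instead of 13 were lower with library totals, 24 with limma on log2(FPKM + 1) and on log2(FPKM + 0.1), and 23 with limma on log2(FPKM + 1) without a filter. Over all genes, 1704 were higher and 4963 lower with library totals, 1697 and 4916 with limma on log2(FPKM + 1), 1694 and 4904 on log2(FPKM + 0.1), and 1735 and 4702 with limma on log2(FPKM + 1) without a filter. With a log2 fold change beyond 1, limma on log2(FPKM + 1) called 348 higher and 352 lower genes, and 349 and 352 without a filter, where the pseudocount lowers the change of low genes. These scalings place the median of all genes below 0.

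For small RNA, the replicate block called 31 of the miRNAs, DESeq2 12 and the fit with no filter 16, against 0, and leaving out 1 library gave 0 to 9, the lone library of a group being assumed to vary like the other group. The replicate numbers share a correlation of 0.441 between paired deviations, but there are only 2 pairs and the labels tie them to nothing. The log2 fold change of miR-675-3p lay between -0.46 and 0.89 with each library left out, below 0 without control replicate 2 or IL-4 replicate 1. No paired analysis was possible for mRNA-seq because its groups share no replicate number. The 2 cultures per group and few reads limit what can be said of miR-483 and miR-675.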
